A study of Mus musculus with 6 samples.

Results

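The genes described here are 36 markers of cell types other than skeletal muscle, listed by name: 11 endothelial, 7 Schwann cell or neural crest, 5 mesothelial, 6 tendon, cartilage and bone, 5 adipocyte and 2 pericyte genes. All 36 were found among the 55286 gene symbols of the deposited count table, and 30 had enough counts to be tested. RNA was sequenced from 6 mouse libraries in 3 groups of 2. The groups were directly reprogrammed cells, here called transdifferentiated after their source name, muscle, and mouse embryonic fibroblasts (MEF), which are cultures grown from embryo tissue. The series title calls the process trans-differentiation. The labels give no reprogramming factor, time after conversion, muscle source, age or mouse strain. Nor do they say whether replicates were separate cultures or animals, so each p-value reflects the scatter of these libraries, and that scatter may be technical.

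Primary MEF cultures come from whole or partly dissected embryos, so they can hold more than connective tissue fibroblasts. Endothelial cells line blood vessels, Schwann cells wrap peripheral nerves and descend from the neural crest, and mesothelial cells cover the body cavities. Tendon, cartilage, bone and fat cells are mesenchymal relatives of fibroblasts, and pericytes sit on small vessels. Each lineage is recognised by transcription factors that establish it and by surface or secreted proteins that carry out its function. In bulk RNA, fewer cells of a type and less RNA per cell cannot be told apart.

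Each library held 16817033 to 24584951 counts. Levels are in CPM, counts per 1000000 of a library size scaled by the trimmed mean of M-values, and 1 count was worth between 0.0426 and 0.0609 CPM. Differences are log2 fold changes with their standard error (SE) from edgeR's quasi-likelihood test, called at an adjusted p under 0.05 over all 17400 genes tested. The summed level of 9 muscle genes including Myod1, Myog and Mymk was 42590 and 61200 CPM in transdifferentiated cells, 62030 and 55960 CPM in muscle, and 401 and 261 CPM in MEF. For 8 fibroblast genes the sums were 12310 and 15420 CPM in transdifferentiated cells, 12460 and 6707 CPM in muscle, and 26590 and 16920 CPM in MEF. A list of 10 macrophage genes summed to 459.9 and 481 CPM in transdifferentiated cells, 3.97 and 1.83 CPM in muscle, and 53.2 and 39.1 CPM in MEF. Of its 10 genes 9 were tested and these 9 were called higher in transdifferentiated cells than in either other group, while Itgam had too few counts. The part of macrophage RNA in the marker results was not tested.

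Compared with MEF, 10 of the 36 markers fell in transdifferentiated cells (called lost), 3 rose (called gained), 17 passed neither test and 6 had too few counts. Among all tested genes 11.3% were lower and 15.9% higher. The 10 that fell were Flt1, Tek and Esam (endothelial), S100b (Schwann), Upk3b (mesothelial), Tnmd, Sox9 and Runx2 (tendon, cartilage and bone), Pparg (adipocyte) and Rgs5 (pericyte). The 3 that rose were Vwf, Msln and Scx. Tek and Esam passed the count filter only through MEF, where they were high, so their calls are descriptive only. A fall did not mean absence: 7 of the 10 still averaged at least 1 CPM in transdifferentiated cells. Of the 17 that passed neither test, 13 averaged at least 1 CPM in both groups. The median log2 fold change of the 30 tested markers was -0.85, against 0.07 for all tested genes. Libraries of the groups stood apart without overlap for 18 markers that were lower and 6 that were higher, against 27.9% and 32.7% of all tested genes.

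Fewer markers reached 1 CPM in muscle, but not every lineage had a lower summed level there. The mesothelial markers summed to 441 and 457 CPM in muscle, 194.5 and 304.6 CPM in transdifferentiated cells, and 191.7 and 153.2 CPM in MEF. Tendon, cartilage and bone sums were 215 and 218 CPM in muscle. They were 129.9 and 166.7 CPM in transdifferentiated cells and 269.9 and 216.5 CPM in MEF. Endothelial and Schwann sums were lowest in muscle. Against MEF, 22 were lower and 3 higher in muscle, where 18.3% and 17.3% of all tested genes were lower and higher. Libraries of muscle and MEF stood apart for 23 that were lower and 5 that were higher in muscle, against 34.3% and 34.5% of all tested genes. Of the 22 lower in muscle, 6 had calls that leaving out a library ended. With muscle replicate 1 left out, edgeR's adjusted p became 0.0744 for Esam, 0.0726 for Foxd3, 0.0646 for Pparg, 0.0701 for Cebpa and 0.0585 for Cspg4. With muscle replicate 2 left out, it became 0.0575 for Foxd3, 0.0746 for Sox9, 0.0617 for Pparg, 0.106 for Cebpa and 0.232 for Cspg4. With MEF replicate 1 left out, it became 0.0971 for Cebpa and 0.139 for Cspg4, and the replicate block gave 0.0542 for Cspg4. Against muscle, 12 were higher and 2 lower in transdifferentiated cells, where 7.58% and 2.46% of all tested genes were. Libraries of these groups stood apart for 19 that were higher and 4 that were lower, against 26.4% and 22.5% of all tested genes. Markers at 0 in muscle passed the count filter only through the other groups, so these counts describe the list and test nothing about it. The adjusted p against muscle given below for Emcn, Cdh19, Foxd3, Sox2 and Upk3b, at 0 there, carry the same limit. Others with few counts in muscle, such as Sox10, Wt1, Lrrn4 and Kdr, also passed the filter only through the other groups. Their adjusted p against muscle carry this limit too. In transdifferentiated cells 25 of the 36 markers averaged at least 1 CPM, in muscle 14 and in MEF 26. Both muscle libraries held 0 counts of 10 markers. The median log2 fold changes of the 30 tested markers were 1.47 in transdifferentiated cells over muscle, where that of all tested genes was 0.03, and -3.87 in muscle over MEF, or -2.48 with genes at 0 set to the bound that 3 counts allow. A fold against a group at 0 is given as a lower bound, taken at 3 counts in each library, which average 0.155 CPM in muscle. These limits and the ratio intervals given below cover counting error only. The comparisons share libraries, so their values are given side by side and are not independent.

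**Figure D1:**
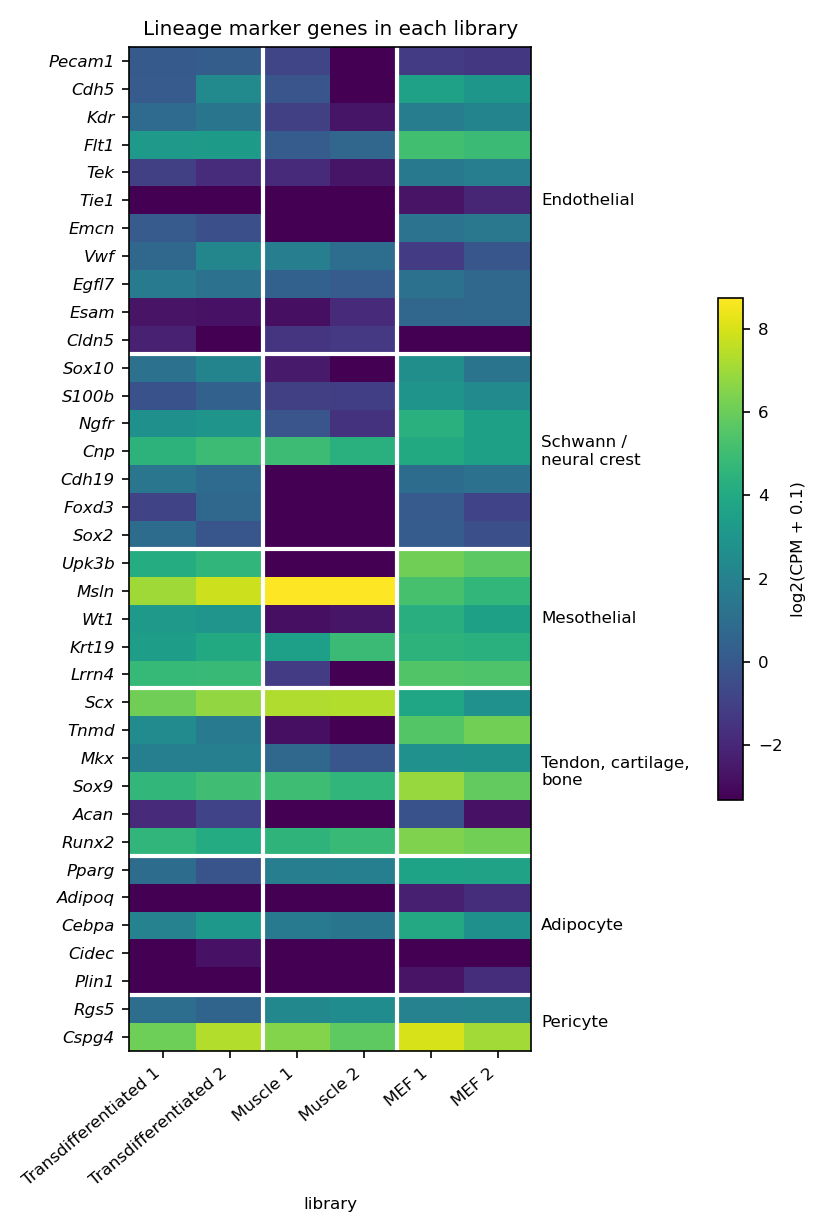
Level of each of the 36 markers (rows, grouped by lineage) in each of the 6 libraries (columns), as log2(CPM + 0.1). Msln and Scx are bright in the transdifferentiated and muscle columns. Emcn, Cdh19, Foxd3, Sox2, Upk3b and the untested Acan are at 0 in both muscle libraries and above 0 in the other 4.

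**Figure D2:**
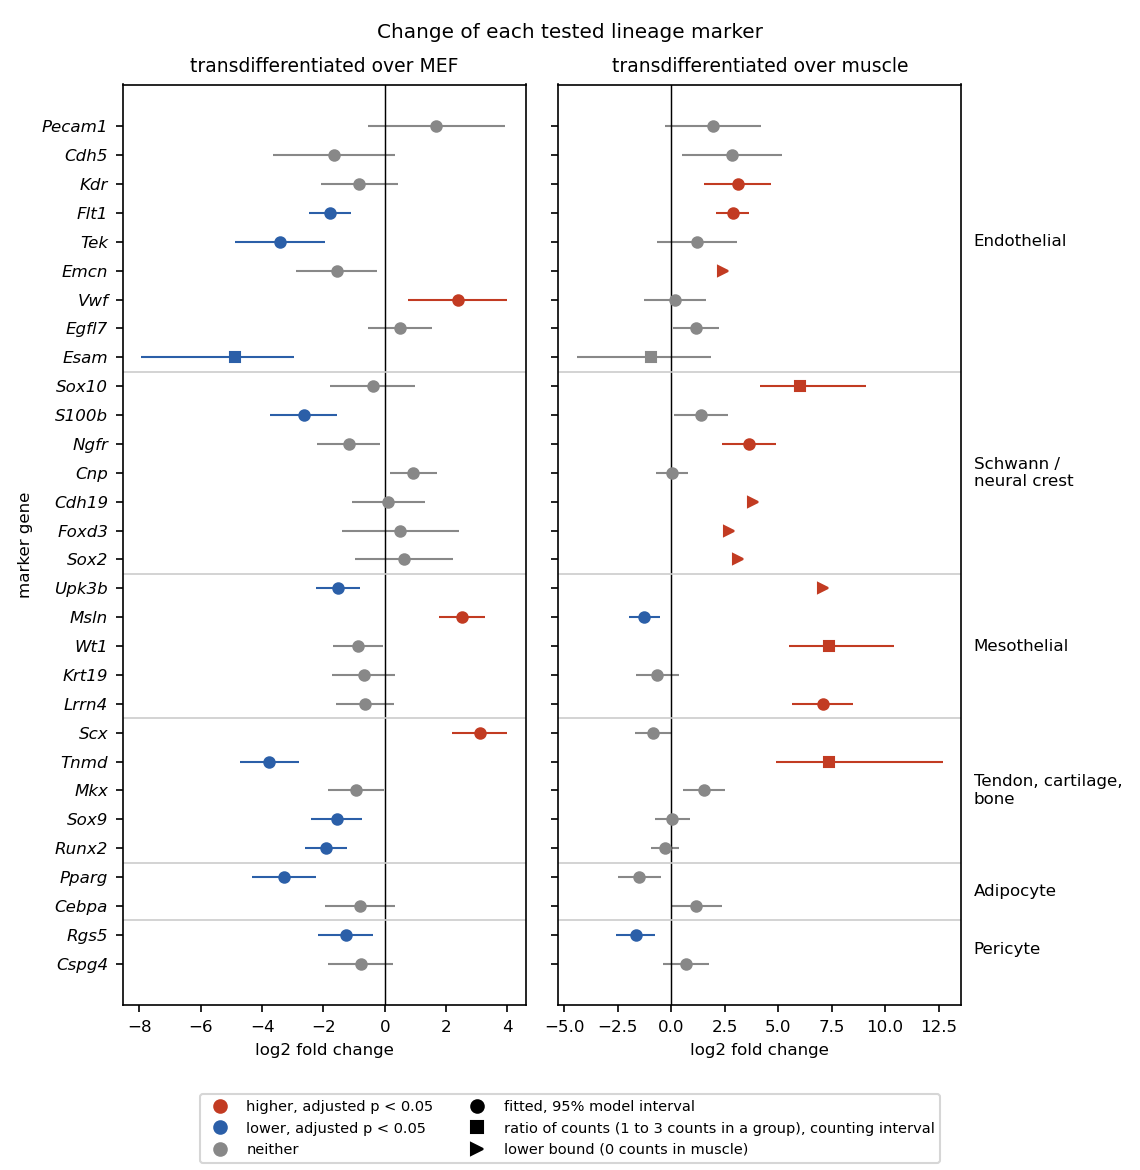
Log2 fold change of the 30 tested markers in transdifferentiated cells over MEF (left) and over muscle (right), coloured by call. Circles are fitted values with 95% intervals, squares are ratios of counts with counting intervals, and triangles are lower bounds for genes with 0 counts in muscle. Coloured as called, 3 markers were higher and 10 lower than in MEF, and 12 were higher and 2 lower than in muscle.

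Endothelial markers were mostly low in every group, and the members differed in direction. Of 11 markers 3 fell in transdifferentiated cells against MEF, 1 rose, 5 were neither and 2 were untested. Against muscle 3 were higher and 6 neither. Of all tested genes 11.3% were lower and 15.9% higher than in MEF, and 2.46% lower and 7.58% higher than in muscle. These shares stand beside every lineage count below. Their summed level was 18.7 and 26.0 CPM in transdifferentiated cells, 7.85 and 5.05 CPM in muscle, and 58.1 and 52.9 CPM in MEF. The vascular endothelial growth factor (VEGF) receptor Flt1 stood at 8.94 and 9.35 CPM in transdifferentiated cells, 1.02 and 1.46 CPM in muscle, and 33.5 and 29.6 CPM in MEF. The 3 groups did not overlap. Flt1 had a log2 fold change of -1.79 ± 0.30 against MEF and 2.89 ± 0.34 against muscle (edgeR adjusted p = 0.00262 and 0.00109). The main signalling VEGF receptor, Kdr, was at 1.74 and 2.52 CPM in transdifferentiated cells, 0.384 and 0.0609 CPM in muscle, and 3.31 and 4.27 CPM in MEF. Its difference from MEF was not called (-0.83, 95% interval -2.09 to 0.44), and its difference from muscle was (3.12 ± 0.69, edgeR adjusted p = 0.022). Without muscle replicate 2 or transdifferentiated replicate 2 the call against muscle was lost (adjusted p = 0.119 and 0.0517).

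The angiopoietin receptor Tek was at 0.394 and 0.194 CPM in transdifferentiated cells, 0.171 and 0.0609 CPM in muscle, and 2.81 and 3.497 CPM in MEF. Transdifferentiated cells thus held 9.31% of the MEF level (-3.42 ± 0.65, edgeR adjusted p = 0.00476). Tek, and Esam below, passed the count filter only through MEF, and their adjusted p carry that limit. Its relative Tie1 had 0 counts in transdifferentiated cells and muscle and 1 and 3 counts in MEF. Esam, an adhesion molecule of endothelial tight junctions, had 1 count in each transdifferentiated library, 1 and 3 counts in muscle, and 27 and 32 counts in MEF. It was close to the detection limit in transdifferentiated cells and muscle, and 29.3 times lower in transdifferentiated cells than in MEF (exact counting interval 7.75 to 247, edgeR adjusted p = 0.00528). The endothelial cadherin Cdh5 was at 1.01 and 5.33 CPM in transdifferentiated cells, 0.810 and 0 CPM in muscle, and 11.8 and 8.35 CPM in MEF. Transdifferentiated replicate 1 was far below replicate 2. Cdh5 was not called against MEF (-1.65, 95% interval -3.63 to 0.32, edgeR adjusted p = 0.198), but was without the filter on low counts (adjusted p = 0.0034). Over the alternatives its log2 fold change against MEF ran from -3.33, without transdifferentiated replicate 2, to -0.91. Against muscle Cdh5 was not called (adjusted p = 0.141), but was without the filter on low counts (1.32e-05) and without transdifferentiated replicate 1, MEF replicate 1 or MEF replicate 2 (adjusted p = 0.016, 0.0449 and 0.0429).

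Pecam1, a surface molecule of endothelial cells that platelets and leukocytes also carry, was at 0.956 and 1.07 CPM in transdifferentiated cells, 0.469 and 0 CPM in muscle, and 0.331 and 0.291 CPM in MEF. The transdifferentiated libraries were the highest, but the difference from MEF was not called (1.68, 95% interval -0.55 to 3.91). Endomucin (Emcn), a sialomucin of veins and capillaries, was at 1.01 and 0.678 CPM in transdifferentiated cells, 0 in both muscle libraries, and 2.31 and 2.72 CPM in MEF. It was at least 5.44-fold higher in transdifferentiated cells than in muscle (edgeR adjusted p = 0.00952; 0.0552 without muscle replicate 1), and its difference from MEF was not called (-1.57 ± 0.57, adjusted p = 0.0789; 0.041 with edgeR's newer quasi-likelihood method).

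Von Willebrand factor (Vwf), the clotting protein that endothelial cells store and release, was the endothelial marker that rose. It was at 1.52 and 4.60 CPM in transdifferentiated cells, 3.45 and 1.95 CPM in muscle, and 0.331 and 0.826 CPM in MEF. All libraries of transdifferentiated cells and muscle lay above those of MEF (2.38 ± 0.71 and 2.21 ± 0.71, edgeR adjusted p = 0.0364 and 0.0391). The call against MEF was lost without transdifferentiated replicate 2 (adjusted p = 0.23), without MEF replicate 1 (0.112), with a replicate block (0.0503) and with only the groups compared (0.0544). For muscle against MEF, the call did not hold when MEF replicate 1 (adjusted p = 0.124), muscle replicate 1 (0.185) or muscle replicate 2 (0.0541) was left out. Egfl7, a secreted vessel protein, was at 2.98 and 2.23 CPM in transdifferentiated cells, 1.24 and 1.04 CPM in muscle, and 2.15 and 1.55 CPM in MEF, with no call (0.49, 95% interval -0.55 to 1.54 against MEF). Its exons overlap the protein-coding gene Gm20532 on the same strand, the microRNA genes Mir126a and Mir126b and, on the other strand, Agpat2, so its level is uncertain. The tight junction claudin Cldn5 had 2 and 0 counts in transdifferentiated cells, 6 and 5 in muscle and 0 in MEF.

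Of 26 further endothelial genes 4 were higher and 5 lower in transdifferentiated cells than in MEF, 9 were neither and 8 were untested. The lymphatic VEGF receptor Flt4 was at 1.24 and 2.23 CPM in transdifferentiated cells, 0.299 and 0.122 CPM in muscle, and 40.4 and 23.8 CPM in MEF (-4.20 ± 0.47 against MEF, edgeR adjusted p = 2.98e-04). Prox1, a transcription factor of lymphatic endothelium that skeletal muscle also makes, was at 10.96 and 11.9 CPM in transdifferentiated cells, 19.1 and 24.7 CPM in muscle, and 0.771 and 0.68 CPM in MEF. The C-type lectin Cd93, carried by endothelial and myeloid cells, was at 16.8 and 16.7 CPM in transdifferentiated cells, 0.299 and 0.304 CPM in muscle, and 3.19 and 4.23 CPM in MEF (2.17 ± 0.34 against MEF, edgeR adjusted p = 0.0018). Plvap, a protein of capillary diaphragms, rose by 2.76 ± 0.63, a call lost without transdifferentiated replicate 2 (adjusted p = 0.0913).

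Ligands of the receptors above and of the neurotrophin receptor Ngfr were listed as well. Of 12 ligands 5 were lower and 1 higher in transdifferentiated cells than in MEF, 5 were neither and 1 was untested. The lymphatic growth factor Vegfd, which binds Flt4, was at 16.8 and 12.5 CPM in transdifferentiated cells, 0.768 and 1.58 CPM in muscle, and 92.7 and 98.3 CPM in MEF (-2.71 ± 0.34 against MEF, edgeR adjusted p = 5.64e-04). Brain-derived neurotrophic factor (Bdnf) was at 12.1 and 11.7 CPM in transdifferentiated cells, 13.9 and 10.04 CPM in muscle, and 62.2 and 76.99 CPM in MEF (-2.55 ± 0.29 against MEF, edgeR adjusted p = 3.10e-04). Neurotrophin Ntf5 was the ligand that rose, at 2.31 and 3.002 CPM in transdifferentiated cells, 3.33 and 4.87 CPM in muscle, and 0.551 and 0.389 CPM in MEF.

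The Schwann cell and neural crest markers differed in pattern. Sox10, Cdh19, Foxd3 and Sox2 had counts in every transdifferentiated and MEF library and were at or near 0 in muscle. Foxd3 and Sox2 averaged only 0.714 and 0.863 CPM in MEF. S100b fell to 15.7% of the MEF level, and Cnp averaged 26.3 CPM in transdifferentiated cells and 25.2 CPM in muscle. Of 7 markers 0 rose and 1 fell against MEF with edgeR, while 5 were higher than in muscle. At an unadjusted p under 0.05, 1 was higher than in MEF, and DESeq2 called 0 higher and 2 lower. Sox10, the transcription factor that specifies the glial branch of the neural crest, was at 2.14 and 4.26 CPM in transdifferentiated cells, 0.0853 and 0 CPM in muscle, and 6.06 and 2.38 CPM in MEF. Transdifferentiated and MEF libraries overlapped (-0.39, 95% interval -1.77 to 0.99). Against muscle, with 2 counts in all, the ratio was 65.4 (exact counting interval 17.7 to 546, edgeR adjusted p = 0.006). Foxd3, an early neural crest factor, was at 0.450 and 1.55 CPM in transdifferentiated cells, 0 in muscle, and 0.991 and 0.437 CPM in MEF. Sox2, a factor of neural and glial progenitors, was at 1.86 and 0.823 CPM in transdifferentiated cells, 0 in muscle, and 1.05 and 0.680 CPM in MEF. Both overlapped with MEF. Both passed the count filter only through the groups other than muscle, and both were above muscle, by at least 6.44-fold and 8.63-fold (edgeR adjusted p = 0.0277 and 0.0111). Those calls were lost without muscle replicate 1 (adjusted p = 0.136 and 0.0635) or replicate 2 (0.117 and 0.0528), and that of Foxd3 also without transdifferentiated replicate 2 (0.0983). The glial cadherin Cdh19 was at 2.59 and 1.79 CPM in transdifferentiated cells, 0 in muscle, and 1.82 and 2.19 CPM in MEF. It was at least 14.1-fold higher than in muscle (edgeR adjusted p = 0.0025), with a log2 difference from MEF between -1.06 and 1.31 (95% interval).

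Promoters of Foxd3 and Sox2 are shown because both genes were at 0 in muscle and had counts in every transdifferentiated and MEF library. A further reason is that the series title concerns DNA methylation, which mammals place on CG dinucleotides. The windows are the 250 bases before the RefSeq start site on GRCm38.p6 (chr4:99656049-99656298, plus strand, and chr3:34649745-34649994, plus strand), with each CG in capitals.
Foxd3: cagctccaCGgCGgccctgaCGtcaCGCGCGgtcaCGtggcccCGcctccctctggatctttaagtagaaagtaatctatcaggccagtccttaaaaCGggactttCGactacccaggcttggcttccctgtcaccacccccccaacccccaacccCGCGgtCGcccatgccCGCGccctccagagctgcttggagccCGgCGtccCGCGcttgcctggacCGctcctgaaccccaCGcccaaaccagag
Sox2: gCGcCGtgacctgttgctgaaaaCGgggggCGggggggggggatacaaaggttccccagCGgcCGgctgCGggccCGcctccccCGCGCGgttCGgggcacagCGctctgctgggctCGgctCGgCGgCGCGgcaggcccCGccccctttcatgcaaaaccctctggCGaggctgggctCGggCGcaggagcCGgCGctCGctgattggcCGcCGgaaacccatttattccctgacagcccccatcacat
The window of Foxd3 held 21 CG and that of Sox2 27. Across 32851 RefSeq windows of the same length 92.1% held at least 1 CG, with a median of 6 and quartiles of 2 and 16. CAGCTG, an E-box read by myogenic factors such as MyoD, which reads the same on both strands, was in neither window and in 13.0% of all windows. The wider E-box CANNTG, which includes it, occurred in the Foxd3 window, 1 site, and in 66.2% of all windows. The windows of Emcn (1 CG) and Acan (26 CG), also at 0 in muscle, are not shown. Nor are those of Tie1 (6 CG), Adipoq (0 CG), Plin1 (1 CG) and Cidec (4 and 6 CG). These were at 0 in muscle too and had few counts in every library. No methylation values were used here.

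Among the glial surface and cytoplasmic proteins, the calcium-binding S100b was the marker that fell. It was at 0.731 and 1.259 CPM in transdifferentiated cells, 0.384 and 0.365 CPM in muscle, and 7.49 and 5.15 CPM in MEF. Transdifferentiated cells held 15.7% of the MEF level (-2.65 ± 0.48, edgeR adjusted p = 0.00376). The neurotrophin receptor Ngfr was at 6.47 and 7.51 CPM in transdifferentiated cells, 0.810 and 0.243 CPM in muscle, and 19.9 and 11.7 CPM in MEF, so the 3 groups did not overlap. Its difference from MEF was not called (-1.18 ± 0.45, adjusted p = 0.0877) but was with DESeq2 (0.0402), without the filter on low counts (0.0254) and without MEF replicate 2 (0.0351). Against muscle it was 3.64 ± 0.55 (edgeR adjusted p = 0.00388). The myelin enzyme Cnp, made in many tissues besides glia and overlapping Dnajc7 on the other strand, was at 22.2 and 30.4 CPM in transdifferentiated cells, 30.4 and 20.0 CPM in muscle, and 16.3 and 11.5 CPM in MEF, with no call against MEF (0.92 ± 0.34, edgeR adjusted p = 0.0731; 0.0475 without the filter).

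Of 18 further Schwann and neural crest genes 5 were higher and 3 lower in transdifferentiated cells than in MEF, 6 were neither and 4 were untested. Glial fibrillary acidic protein Gfap, the intermediate filament of glia, was at 15.7 and 17.3 CPM in transdifferentiated cells, 0 and 0.0609 CPM in muscle, and 0.165 and 0.243 CPM in MEF. Its transdifferentiated libraries lay far above those of both other groups (6.28 ± 0.54 over MEF, edgeR adjusted p = 5.91e-05; ratio to muscle 662, exact counting interval 118 to 26200). Fabp7, a lipid carrier of glial precursors, was at 16.8 and 4.60 CPM in transdifferentiated cells, 0 and 0.0609 CPM in muscle, and 0.331 and 1.07 CPM in MEF (3.90 ± 0.79 over MEF, edgeR adjusted p = 0.00657). The neuregulin receptor Erbb3, which both Schwann cells and muscle use, was at 77.4 and 93.6 CPM in transdifferentiated cells, 226 and 228 CPM in muscle, and 2.59 and 2.09 CPM in MEF. The growth-cone protein Gap43, the adhesion molecule L1cam and the myelin protein Pmp22 fell by 1.63, 1.62 and 0.98 on the log2 scale. The call for L1cam was lost when either MEF replicate 1 (adjusted p = 0.101) or transdifferentiated replicate 1 (0.0848) was left out. That for Pmp22 was lost without MEF replicate 1 (0.0767), either transdifferentiated replicate (0.0852 and 0.0546) and with a replicate block (0.0542).

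Upk3b, Wt1 and Lrrn4 were detected in transdifferentiated cells and at or near 0 in muscle, while mesothelin was abundant in both. Of 5 markers 1 fell, 1 rose and 3 were neither against MEF. The mesothelial surface protein Upk3b (uroplakin 3b) was at 17.6 and 24.6 CPM in transdifferentiated cells, 0 in both muscle libraries, and 69.5 and 52.6 CPM in MEF. It fell by 1.53 on the log2 scale against MEF (SE 0.31, edgeR adjusted p = 0.00889) and was at least 136-fold higher than in muscle (edgeR adjusted p = 1.75e-04). Wt1, the transcription factor of mesothelium and kidney, was at 9.16 and 7.70 CPM in transdifferentiated cells, 0.0426 and 0.0609 CPM in muscle, and 19.2 and 11.7 CPM in MEF. With 1 count in each muscle library its ratio to muscle was 167 (exact counting interval 45.9 to 1390, edgeR adjusted p = 2.58e-04). The leucine-rich repeat protein Lrrn4 was at 26.8 and 28.3 CPM in transdifferentiated cells, 0.341 and 0 CPM in muscle, and 43.8 and 43.0 CPM in MEF (7.10 ± 0.63 over muscle, edgeR adjusted p = 3.32e-04). All libraries of transdifferentiated cells lay below those of MEF for Wt1 and Lrrn4, without a call (95% intervals -1.68 to -0.06 and -1.60 to 0.29). Transdifferentiated cells held 34.6%, 54.7% and 63.5% of the MEF level of Upk3b, Wt1 and Lrrn4.

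The windows of Upk3b and Lrrn4 are shown because of these differences from muscle (chr5:136038246-136038495, plus strand, and chr2:132880863-132881112, minus strand), again with each CG in capitals.
Upk3b: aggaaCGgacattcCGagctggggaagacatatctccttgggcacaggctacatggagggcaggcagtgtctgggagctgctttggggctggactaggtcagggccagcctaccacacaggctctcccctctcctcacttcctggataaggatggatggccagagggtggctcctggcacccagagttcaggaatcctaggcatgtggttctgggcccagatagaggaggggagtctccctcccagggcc
Lrrn4: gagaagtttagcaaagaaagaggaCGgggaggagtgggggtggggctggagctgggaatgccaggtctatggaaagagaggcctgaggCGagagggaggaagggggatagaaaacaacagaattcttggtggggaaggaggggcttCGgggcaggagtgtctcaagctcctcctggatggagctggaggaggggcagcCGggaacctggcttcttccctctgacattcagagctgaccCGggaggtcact
They held 2 and 5 CG, against the median of 6 over all windows, and no CAGCTG. The Upk3b window held 1 CANNTG and the Lrrn4 window 0.

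Mesothelin (Msln, mm10 chromosome 17, 25748613 to 25754378, minus strand), a cell surface glycoprotein of mesothelium, was at 130.5 and 227.8 CPM in transdifferentiated cells, 429.5 and 426.9 CPM in muscle, and 36.96 and 25.6 CPM in MEF. The groups did not overlap, and muscle was highest. Msln rose by 2.52 ± 0.34 against MEF (edgeR adjusted p = 7.77e-04) and per kilobase of exon was the most abundant marker in transdifferentiated cells, at 58.5 CPM. Against muscle it was lower (-1.26 ± 0.32, edgeR adjusted p = 0.0403), a call lost without muscle replicate 1 or 2 or transdifferentiated replicate 1 (adjusted p = 0.164, 0.177 and 0.184) and with a replicate block (0.0794). The keratin Krt19, of simple epithelia, was at 10.3 and 16.2 CPM in transdifferentiated cells, 11.3 and 30.1 CPM in muscle, and 22.3 and 20.4 CPM in MEF, with no call against either group (95% intervals -1.71 to 0.34 and -1.66 to 0.39).

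Of 14 further mesothelial genes 4 were lower than in MEF, 0 higher and 10 neither with edgeR. At an unadjusted p under 0.05, 1 was higher than in MEF, and DESeq2 called 0 higher and 3 lower. Against muscle 10 were higher and 1 lower, beside 7.58% and 2.46% of all tested genes. The further Schwann and endothelial lists also had 8 and 6 genes higher than muscle. The ephrin Efna5 was at 15.9 and 15.5 CPM in transdifferentiated cells, 2.47 and 2.01 CPM in muscle, and 38.1 and 39.1 CPM in MEF (-1.30 ± 0.27 against MEF, edgeR adjusted p = 0.00742). The mesothelial zinc finger factor Bnc1 was at 5.06 and 4.16 CPM in transdifferentiated cells, 0.0853 and 0.0609 CPM in muscle, and 10.2 and 13.99 CPM in MEF. Its call against MEF (-1.39 ± 0.36) was lost without MEF replicate 2 (adjusted p = 0.104), either transdifferentiated replicate (0.0525 and 0.0866) and with a replicate block (0.0552). The epithelial keratin Krt18 fell by 2.49 (SE 0.70), a call lost without transdifferentiated replicate 1 (adjusted p = 0.0965).

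**Figure D3:**
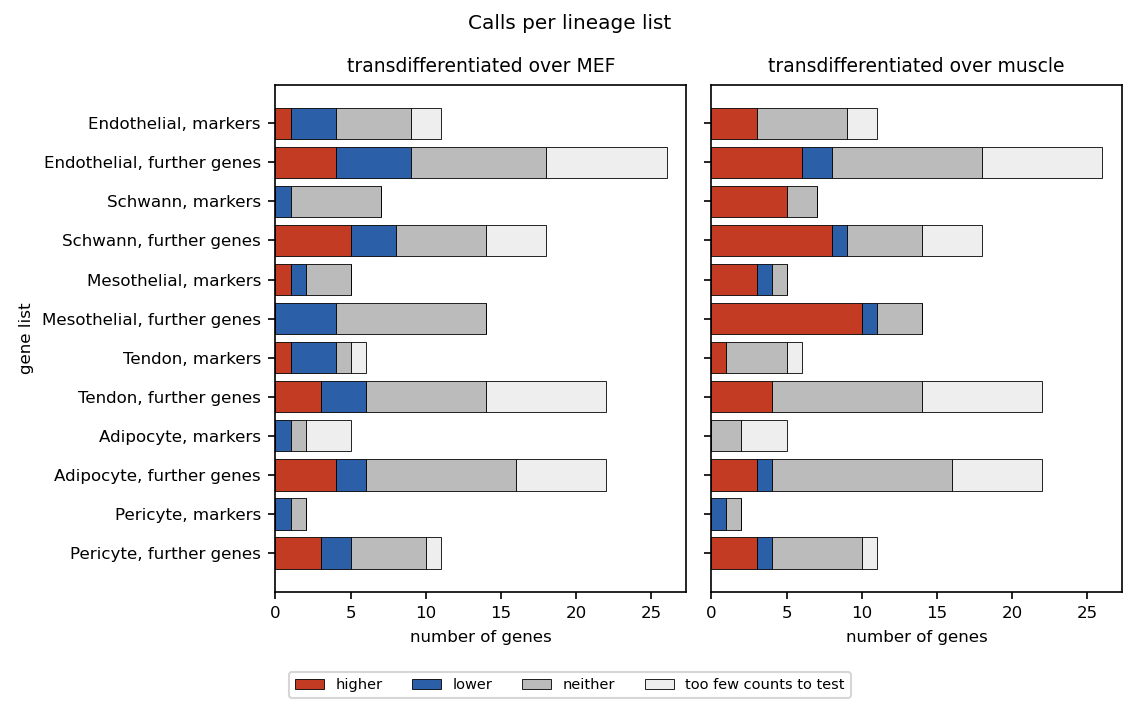
Number of genes called higher, lower or neither, or with too few counts, in each lineage's marker list and its list of further genes, for transdifferentiated cells over MEF (left) and over muscle (right). The further mesothelial genes had 0 higher than MEF and 10 higher than muscle. Further Schwann genes had 5 and 8, and further endothelial genes 4 and 6. Of all tested genes 15.9% were higher than in MEF and 7.58% higher than in muscle.

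Among tendon, cartilage and bone markers 3 of 6 fell against MEF, 1 rose, 1 was neither and 1 was untested. Against muscle 1 was higher and 4 were neither. Scleraxis (Scx, mm10 chromosome 15, 76457452 to 76459458, plus strand), the transcription factor of tendon progenitors, was at 69.8 and 109 CPM in transdifferentiated cells, 159 and 164 CPM in muscle, and 14.1 and 6.80 CPM in MEF. The groups did not overlap, and the mean of 89.5 ± 27.8 CPM in transdifferentiated cells stood at 857% of that in MEF, 10.45 ± 5.16 CPM (SD, n = 2 each). Scx rose by 3.10 ± 0.40 against MEF (edgeR adjusted p = 6.23e-04), and its difference from muscle was not called (-0.85, 95% interval -1.68 to -0.02). Tenomodulin (Tnmd), the membrane protein of mature tendon cells that acts downstream of Scx, went the other way. It was at 5.62 and 3.05 CPM in transdifferentiated cells, 0.0426 and 0 CPM in muscle, and 45.2 and 72.1 CPM in MEF. Transdifferentiated cells held 7.39% of the MEF level (-3.76 ± 0.43, edgeR adjusted p = 3.20e-04), and their ratio to muscle, with 1 count in all, was 169 (exact counting interval 29.9 to 6720). Mohawk (Mkx), a homeobox factor of tendon, was at 3.65 and 3.58 CPM in transdifferentiated cells, 1.58 and 0.852 CPM in muscle, and 6.72 and 7.19 CPM in MEF. The 3 groups did not overlap, yet Mkx was called against neither MEF (-0.94 ± 0.40, edgeR adjusted p = 0.117) nor muscle (1.55 ± 0.43, adjusted p = 0.0551; 0.041 with DESeq2 and 0.0321 without the filter).

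The Tnmd window is shown because this tendon gene fell where Scx rose (chrX:133850758-133851007, plus strand), with each CG in capitals.
Tnmd: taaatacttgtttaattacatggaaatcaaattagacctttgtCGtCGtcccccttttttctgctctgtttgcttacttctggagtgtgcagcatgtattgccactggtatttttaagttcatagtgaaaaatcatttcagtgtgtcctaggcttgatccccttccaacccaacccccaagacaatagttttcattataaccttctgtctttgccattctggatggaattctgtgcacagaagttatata
It held 2 CG, no CAGCTG and no CANNTG.

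Both skeletal transcription factors fell against MEF. Sox9, the master regulator of cartilage, was at 25.8 and 33.3 CPM in transdifferentiated cells, 31.6 and 24.8 CPM in muscle, and 117 and 58.0 CPM in MEF (-1.57 ± 0.37 against MEF, edgeR adjusted p = 0.0129; 0.0666 without MEF replicate 1). Runx2, that of bone, was at 24.9 and 17.1 CPM in transdifferentiated cells, 22.7 and 29.0 CPM in muscle, and 85.8 and 72.4 CPM in MEF (-1.91 ± 0.30, edgeR adjusted p = 0.00178). Its exons overlap the antisense gene Runx2os1. Transdifferentiated and muscle libraries overlapped for both genes, with 95% intervals of the log2 difference of -0.75 to 0.88 for Sox9 and -0.96 to 0.36 for Runx2. Aggrecan (Acan), the proteoglycan of cartilage, had 3 and 9 counts in transdifferentiated cells, 0 in muscle, and 13 and 1 in MEF.

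Of 22 further tendon, cartilage and bone genes 3 were higher, 3 lower, 8 neither and 8 untested against MEF. Col2a1, the collagen of cartilage, was at 0.562 and 0.581 CPM in transdifferentiated cells, 0.0853 and 0.122 CPM in muscle, and 12.1 and 5.10 CPM in MEF (-3.89 ± 0.56 against MEF, edgeR adjusted p = 0.00124). The homeobox gene Msx2, active in bone progenitors, fell by 4.52 (SE 0.61). Sox6, a partner of Sox9 in cartilage that also governs fibre type in muscle, was at 18.4 and 24.98 CPM in transdifferentiated cells, 34.2 and 44.7 CPM in muscle, and 2.09 and 3.98 CPM in MEF (2.83 ± 0.39 over MEF, edgeR adjusted p = 8.91e-04).

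Of the 5 adipocyte markers 1 fell against MEF, 1 was neither and 3 were untested. Those 3 had 0 to 4 counts in each library. Pparg, the nuclear receptor that drives fat cell formation, was at 1.80 and 0.775 CPM in transdifferentiated cells, 3.497 and 3.65 CPM in muscle, and 12.6 and 12.2 CPM in MEF. The groups did not overlap, and transdifferentiated cells were lowest, at 10.4% of the MEF level (-3.28 ± 0.46, edgeR adjusted p = 0.001). The difference from muscle was not called (-1.48 ± 0.45, adjusted p = 0.0777) but was with DESeq2 (0.0271), without the filter on low counts (0.0268) and without transdifferentiated replicate 1 (0.0305). Its partner Cebpa was at 3.99 and 8.57 CPM in transdifferentiated cells, 3.03 and 2.50 CPM in muscle, and 15.4 and 6.61 CPM in MEF. The libraries of transdifferentiated cells and MEF overlapped (-0.80, 95% interval -1.95 to 0.34). The fat cell hormone Adipoq had 0 counts in transdifferentiated cells and muscle and 2 and 4 in MEF. The lipid droplet coat protein Plin1 had 0 counts in transdifferentiated cells and muscle and 1 and 4 in MEF, and the droplet fusion protein Cidec had 1 count in all, in a transdifferentiated library.

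Of 22 further adipocyte genes 4 were higher, 2 lower, 10 neither and 6 untested against MEF. The fatty acid transporter Cd36, which muscle and macrophages also make, was at 219 and 135 CPM in transdifferentiated cells, 72.8 and 71.5 CPM in muscle, and 0.386 and 1.51 CPM in MEF. The insulin-responsive glucose transporter Slc2a4, shared by fat and muscle, was at 41.2 and 70.6 CPM in transdifferentiated cells, 74.9 and 82.2 CPM in muscle, and 1.65 and 0.923 CPM in MEF. The triglyceride-forming enzyme Dgat2 rose by 2.31 ± 0.34 against MEF (edgeR adjusted p = 0.00143). The 2 that fell were Ebf2, a factor of fat precursors (-2.11 ± 0.35, edgeR adjusted p = 0.00226), and lipoprotein lipase Lpl (-1.51 ± 0.30, edgeR adjusted p = 0.00661).

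Both pericyte markers were detected in all groups. The G-protein regulator Rgs5 was at 1.97 and 1.40 CPM in transdifferentiated cells, 4.86 and 5.78 CPM in muscle, and 4.02 and 4.13 CPM in MEF, and its transdifferentiated libraries were the lowest. The calls against MEF (-1.27 ± 0.40, edgeR adjusted p = 0.0429) and muscle (-1.66 ± 0.40, edgeR adjusted p = 0.0308) lay close to the threshold. That against MEF was lost with every library left out, with adjusted p between 0.0744 (without muscle replicate 1) and 0.183 (without transdifferentiated replicate 2), with a replicate block (0.0999), with only the groups compared (0.0826) and without the filter (0.057). That against muscle was lost without either muscle replicate (0.105 and 0.182), either transdifferentiated replicate (0.0655 and 0.157) and with a replicate block (0.0806). The proteoglycan Cspg4, also called NG2, was at 68.4 and 163 CPM in transdifferentiated cells, 90.8 and 53.3 CPM in muscle, and 263 and 136 CPM in MEF. Transdifferentiated libraries overlapped with both other groups, and the difference from MEF (-0.79, edgeR adjusted p = 0.258) was called without transdifferentiated replicate 2 (-1.57, adjusted p = 0.0323). Of 11 further pericyte genes 3 were higher, 2 lower, 5 neither and 1 untested against MEF. The potassium channel regulator Abcc9 and the Notch effector Heyl, which muscle also expressed, rose by 3.79 ± 0.30 and 4.10 ± 0.35. The receptor Pdgfrb and the adhesion molecule Mcam fell by 2.04 and 1.6 on the log2 scale.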

How the data were processed

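RNA from 6 mouse libraries, 2 in each of 3 groups, had been extracted on Qiagen RNeasy columns, made into Lexogen SENSE mRNA-seq libraries and read as 75-base single ends, per the labels' protocols. The deposited values are whole-number counts per gene symbol, which the authors left unnormalized. The submitters' processing notes name Trim Galore 0.6.0, HISAT2 2.1.0, featureCounts 1.6.2, DESeq2 1.26.0 and mm10; the settings, gene annotation and strand setting are not stated. Groups came from the sample labels.

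Counts were filtered with filterByExpr, scaled by the trimmed mean of M-values and tested with edgeR 4.0.16 in R 4.3.3 (quasi-likelihood, all 6 libraries in one fit, 3 residual degrees of freedom, Benjamini-Hochberg adjustment over 17400 genes). Exonic lengths and overlaps came from GENCODE M21 and promoters from RefSeq, which held 24 of the 36 markers. The alternatives were DESeq2 1.42.0, its size factors, no filter, a replicate block, only the groups compared, edgeR's newer quasi-likelihood method, and leaving out each library. The 36 markers and the lists of further genes were chosen with earlier results of these data known. All 36 are reported. From each list of further genes the 3 with the smallest adjusted p against MEF are named, and up to 3 called against the majority. 1 gene that this rule names is not reported here. An exact permutation test of 2 libraries against 2 cannot go below 0.333.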

Additional observations from a re-analysis of the deposited data

How the results depend on the processing

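No called difference changed sign under any alternative run. Of the markers called, 10 of 13 in transdifferentiated cells over MEF, 8 of 14 over muscle, and 18 of 25 in muscle over MEF were called under every alternative; the adjusted p of each lost call, or its range, stands in the results above, and the cause was not tested. Without the filter on low counts, 670 of all genes were lower in transdifferentiated cells than in muscle, against 428. The labels do not say that replicate numbers pair libraries, and deviations of same-numbered libraries correlated at -0.29 (transdifferentiated and muscle), -0.53 (transdifferentiated and MEF) and 0.31 (muscle and MEF). With a replicate block 265 genes and 0 markers were lower in transdifferentiated cells than in muscle. A crossed replicate block, chosen after seeing the data, gave 4521 genes higher and 3828 lower in transdifferentiated cells than in MEF, with 18 markers lower. Against muscle it gave 2662 higher and 1762 lower, with 4 markers lower, and 4716 genes higher in muscle than in MEF.

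With each library left out in turn, all genes lower in transdifferentiated cells than in MEF numbered 1280 to 1926. Against muscle 589 to 1616 were higher and 140 to 605 lower, with 0 to 2 markers lower. In muscle over MEF 1980 to 3223 were higher and 1778 to 3445 lower. For transdifferentiated cells over muscle, the fewest of all genes, higher or lower, came without muscle replicate 2. Depth limits markers with few counts: 3 counts in a library correspond to 0.128 to 0.183 CPM. The filter on low counts left 6 markers untested.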
